A study of Mus musculus with 14 samples.

Results

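The genes described are 7 of the ketone body pathway, chosen by symbol: Bdh1, Bdh2, Acat1, Oxct1, Slc16a1, Slc16a6 and Aacs. All 7 had a row among the 19505 named genes of the array. Liver RNA came from male mice on a C57BL/6 background that were homozygous for floxed alleles of AMPK alpha1 and alpha2, the catalytic subunits of an energy-sensing kinase. From 6 weeks of age all mice were fed a high-fat diet (60% by calories) for 4 weeks and were then injected at 10 weeks through the jugular vein with 1e11 genome copies of AAV8 carrying the TBG promoter, which directs expression to hepatocytes. In the control group (6 samples) the vector was empty, and in the knockout group (8 samples) it carried Cre. Metformin, a glucose-lowering drug, was given to every mouse for the next 3 weeks at 50 mg/kg/day. The livers were taken once the mice had fasted for 16 h. The labels give the age as 4 months, which is more than these times add up to. Floxed alleles, diet, metformin and fast were shared by both groups, so Cre was compared with empty vector under metformin and no drug-free group was analysed here. Whether each sample is a separate mouse is not stated in the labels. The p-values measure the spread between samples, part of which may be technical.

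Ketone bodies are made in liver mitochondria when fatty acid oxidation supplies more acetyl-CoA than the citric acid cycle takes up, as in fasting. Thiolase (Acat1) joins acetyl-CoA units on the way to acetoacetate, and Bdh1 reduces acetoacetate to 3-hydroxybutyrate. Both acids leave the hepatocyte through monocarboxylate transporters and are burned in other tissues after activation by Oxct1, an enzyme that hepatocytes are known to hold at very low levels. Aacs activates acetoacetate in the cytosol for lipid and sterol synthesis instead.

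The 7 genes lie at these places in GRCm38.p6. Bdh1 is at chr16:31422297-31458901, Bdh2 at chr3:135281221-135304426 and Acat1 at chr9:53580522-53610350. Oxct1 is at chr15:4026428-4155344 and Aacs at chr5:125475873-125517405. The transporter genes are at chr3:104638664-104658462 (Slc16a1) and chr11:109450855-109473598 (Slc16a6). RefSeq windows upstream of a transcription start matched 5 of the 7 genes (6 windows, as Bdh1 has 2 listed starts). Shown are 250 bases upstream of the start, 5′ to 3′ on the plus strand, for the gene that was called (Bdh1, its first start, chr16:31422047-31422296), the gene with the largest difference (Aacs, chr5:125475623-125475872) and the member whose values ran most like those of Bdh1 (Slc16a1, chr3:104638414-104638663). Capitals mark every match, on either strand, to the letters GGGTCA or AGGTCA (hexamers to which nuclear receptors can bind), TGACGTCA (a cAMP response element), CACGTG (an E-box), CCAAT or TATAAA.
Bdh1: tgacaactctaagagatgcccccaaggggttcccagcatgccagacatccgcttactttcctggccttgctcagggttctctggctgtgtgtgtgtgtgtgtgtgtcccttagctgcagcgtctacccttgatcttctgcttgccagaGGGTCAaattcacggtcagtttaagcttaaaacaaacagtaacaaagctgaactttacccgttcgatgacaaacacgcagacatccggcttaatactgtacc
Aacs: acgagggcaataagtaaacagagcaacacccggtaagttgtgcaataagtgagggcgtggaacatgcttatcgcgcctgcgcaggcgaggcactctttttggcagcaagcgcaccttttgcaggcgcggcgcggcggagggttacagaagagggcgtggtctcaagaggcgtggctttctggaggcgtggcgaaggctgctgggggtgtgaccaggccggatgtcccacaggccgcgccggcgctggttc
Slc16a1: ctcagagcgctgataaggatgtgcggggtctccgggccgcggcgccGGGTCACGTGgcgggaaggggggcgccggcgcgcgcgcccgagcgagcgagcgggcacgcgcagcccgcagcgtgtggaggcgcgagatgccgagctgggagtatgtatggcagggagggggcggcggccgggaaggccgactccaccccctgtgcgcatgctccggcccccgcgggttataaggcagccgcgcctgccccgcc
The Bdh1 window held 1 match, GGGTCA at position -102 from the start. The same letters were in 11.6% of all 32851 windows of this length. In the Slc16a1 window GGGTCA at position -204 and CACGTG at position -200 overlapped to give the run of capitals, and CACGTG was in 6.02% of all windows. None of these letters was in the Aacs window or in the window of the other Bdh1 start. AGGTCA, in 14.0% of all windows, was in none of the 6 windows of the members, nor was TGACGTCA (1.55% of all windows) or TATAAA (12.4%). CCAAT, in 33.9% of all windows, was in the Bdh2 window, and GGGTCA was also in that of Oxct1. G and C made up 49.6% of the Bdh1 window, 62.4% of the Aacs window and 76.4% of the Slc16a1 window, against a median of 52.4% over all windows.

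Values are log2 intensities per array row, and levels were not compared between genes because each row has its own probes. Clustering on all rows split the arrays into 2 sets with no counterpart in the labels. One (set 1) comprised control 1 to 3 with knockout 1 to 4, the other (set 2) comprised control 4 to 6 with knockout 5 to 8. Correlations between arrays were 0.988 to 0.994 within a set and 0.951 to 0.963 across sets. The set was therefore a term in the limma fit from which all differences, SEs and adjusted p-values below come. The targeted genes were lower in all 8 knockout samples than in every control of their set, as were 0.538% of all genes. The Prkaa2 difference was -1.13 ± 0.08 (SE; limma adjusted p = 1.92e-06), and that of Prkaa1 was -0.67 ± 0.13 (limma adjusted p = 0.0302). For Prkaa1, 8 of the 14 fits that each left out 1 array missed the threshold (adjusted p up to 0.0771, without control 4). The 8 hepatocyte markers averaged 12.55 to 12.90 on every array. Of 53 measured markers on 9 cell type lists, 0 passed the threshold in limma, against 0.702% of all genes. At an unadjusted limma p under 0.05 there were 3, against 10.4% of all genes. With so few markers at such a share, the 0 does not show that cell composition was equal. Control 1 and control 4 were the lowest controls of their sets in the 8 liver endothelial markers: these averaged 7.01 in control 1 against 8.17 and 8.27 in the other controls of set 1, and 8.02 in control 4 against 8.73 and 8.78 in set 2. Among the knockouts of set 1, knockout 1 and 4 were also low at 7.39 and 7.42, against 8.16 and 8.04 in knockout 2 and 3, and those of set 2 ran from 8.35 to 8.84. The 8 Kupffer cell and macrophage markers averaged 8.02 in control 1 against 8.86 and 8.76, and 8.21 in control 4 against 8.62 and 8.53. Low knockouts were also present in this list: knockout 1 at 8.07 against 8.44 to 8.90 in knockout 2 to 4. In set 2 knockout 5 was at 8.27 against 8.54 to 8.88 in knockout 6 to 8. In the 8 stellate cell markers control 1 was at 7.32 against 7.77 and 7.97, whereas control 4 (7.99) lay between the other controls of set 2. Knockout 4 and 1 were the lowest knockouts of set 1 in this list at 7.45 and 7.57, against 7.69 and 7.85. The knockouts of set 2 ran from 7.76 to 8.18. The 5 lymphocyte markers averaged 4.76 to 4.90 in the controls of set 2 and 4.98 to 5.23 in its knockouts. The 2 red blood cell markers averaged 8.31 to 8.39 in the controls of set 2 and 8.01 to 8.21 in its knockouts. In set 1 the groups overlapped in both of these lists. Whether cell composition differed between the groups was not tested.

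Of the 7 genes, 1 was called at an adjusted p under 0.05 and it was higher in the knockout livers: Bdh1. Over all named genes, 0.702% were called, 0.431% as higher and 0.272% as lower. The median difference of the 7 was -0.02 on the log2 scale, against 0.0016 over all genes, and 3 were positive and 4 negative. Bdh1 and Slc16a1 had positive differences and Aacs the largest negative one, while Bdh2, Acat1 and Oxct1 differed by less than 0.05 with intervals on both sides of 0.

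**Figure D1:**
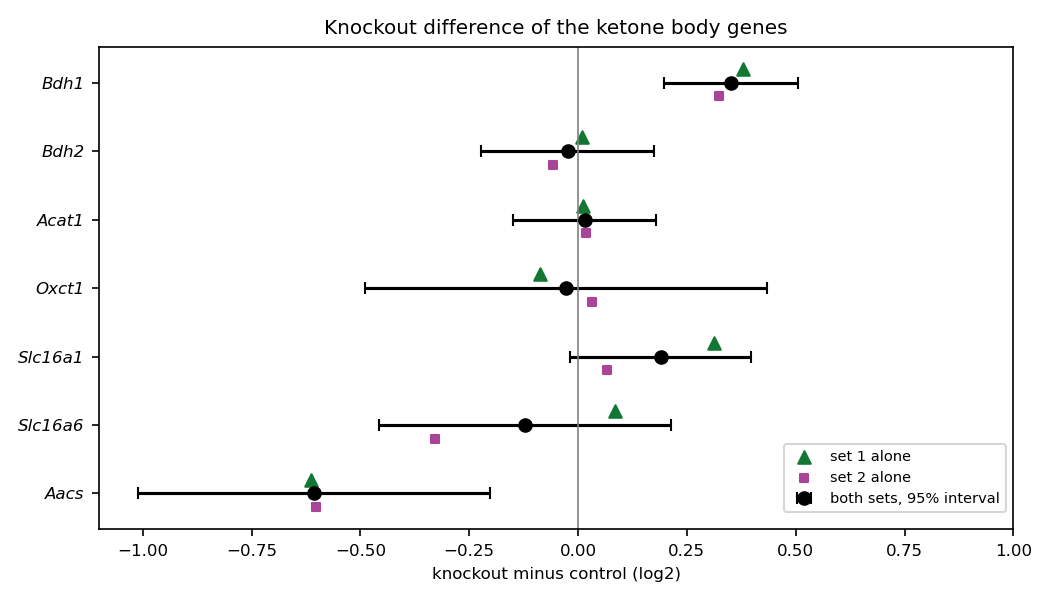
Knockout minus control on the log2 scale for the 7 genes, with 95% intervals from limma with the array set as a term (black) and the plain difference within each set (green triangles, set 1; purple squares, set 2). The Bdh1 and Aacs intervals lie on one side of 0, at 0.20 to 0.50 and -1.01 to -0.20, and Bdh1 was the call.

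Bdh1 encodes the mitochondrial dehydrogenase that interconverts acetoacetate and 3-hydroxybutyrate, the last step of ketone body synthesis. In set 1 its log2 values were 10.85, 10.97 and 11.08 in control 1 to 3, and 11.24, 11.35, 11.47 and 11.33 in knockout 1 to 4. In set 2 they were 10.98, 11.27 and 11.03 in control 4 to 6, and 11.29, 11.40, 11.44 and 11.52 in knockout 5 to 8. All 8 knockout samples lay above every control of their own set, a separation that 0.774% of all genes showed in this direction (1.31% in either). The margin in set 2 was narrow, since control 5 came close to knockout 5, and without regard to set control 5 also exceeded knockout 1. The difference was 0.35 ± 0.07 (SE; n = 6 and 8; limma adjusted p = 0.0376), or 1.28-fold (95% interval 1.15 to 1.42). It was 0.38 in set 1 and 0.32 in set 2, and the exact two-sided permutation within the sets gave p = 0.000816, the smallest that 1225 splits can give. The interaction of knockout with set was -0.05 (95% interval -0.37 to 0.26; limma adjusted p = 0.998).

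The size of the Bdh1 difference changed little when arrays were left out, but its call did not hold. It ran from 0.32 to 0.39 over the 14 fits that each left out 1 array, and the call was lost in 11 of them (adjusted p up to 0.0953, without control 2). The call held without control 3, control 5 or knockout 5. Without control 1 and control 4 together the difference was 0.29 (adjusted p = 0.169), these being the lowest Bdh1 values among the controls of their sets. Both arrays were low in endothelial and Kupffer cell markers. Knockout 1 and 4 were also low in the endothelial list, and knockout 1 and 5 were the lowest knockouts of their sets in the Kupffer list. The part of those markers in the result was not tested.

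**Figure D2:**
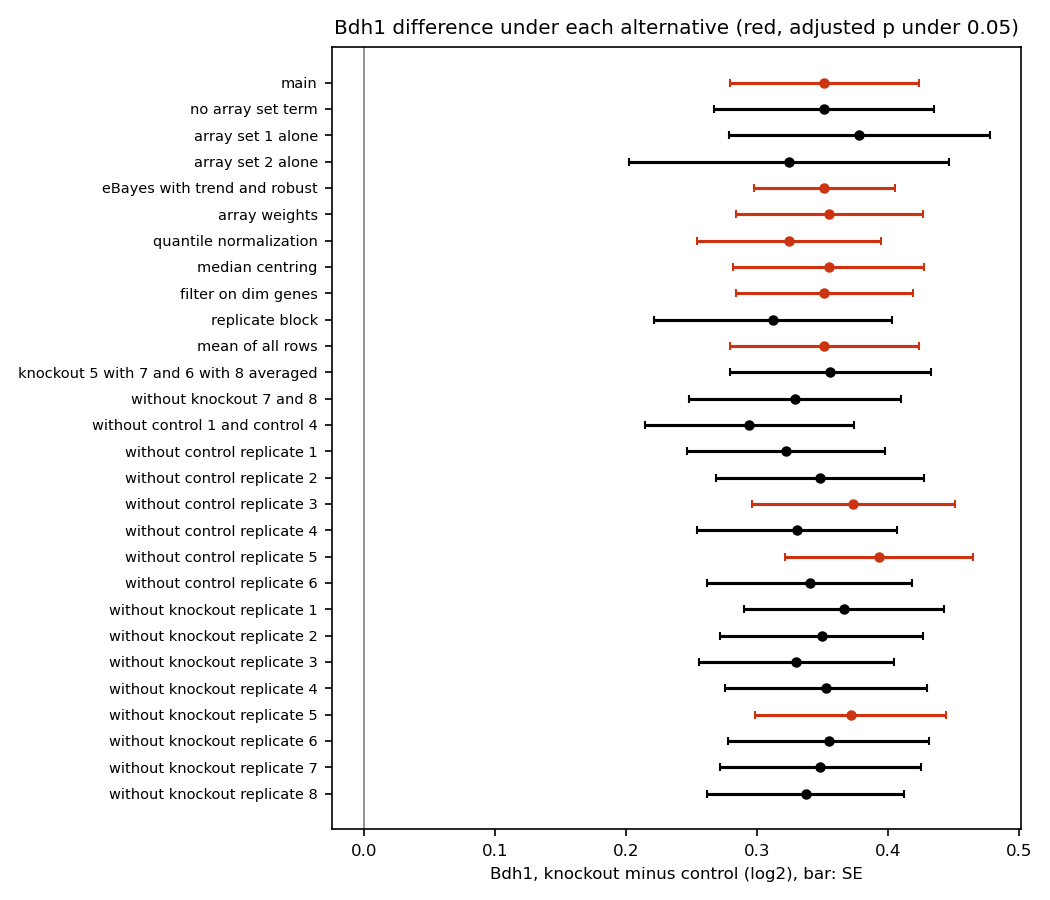
Bdh1 knockout minus control (log2, point) with its SE (bar) in the reported fit and under each alternative; red marks an adjusted p under 0.05. Every value lies between 0.29 and 0.39, whereas the adjusted p crosses the threshold in many of the fits.

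Acat1 encodes the mitochondrial acetoacetyl-CoA thiolase, which works in ketone body synthesis in liver and in the last step of ketone body use elsewhere. Its values were 11.46, 11.63 and 11.33 in the controls of set 1 and 11.58, 11.43, 11.36 and 11.57 in the knockouts. In set 2 they were 11.67, 11.91 and 11.53 in the controls and 11.67, 11.80, 11.77 and 11.64 in the knockouts. The groups overlapped fully in both sets, with no knockout sample above all controls of its set. The difference was 0.02 ± 0.08 (SE; 95% interval -0.15 to 0.18; limma adjusted p = 0.977), so changes within about 1.13-fold up and 0.90-fold down are not excluded by the interval.

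Bdh2 encodes a cytosolic short-chain dehydrogenase named for action on 3-hydroxybutyrate. In set 1 it was at 8.87, 8.81 and 8.91 in the controls and 8.84, 8.93, 8.76 and 8.97 in the knockouts. In set 2 it was at 7.02, 6.32 and 6.45 in the controls and 6.59, 6.47, 6.48 and 6.63 in the knockouts. Every array of set 2 was thus below every array of set 1, and the groups overlapped within each set. The set difference was -2.30 ± 0.09 (SE), a 4.93-fold gap whose size exceeded that of 99.3% of all genes. The knockout difference was -0.02 ± 0.09 (SE; 95% interval -0.22 to 0.18; limma adjusted p = 0.967). Its sign turned to 0.07 without control 4, which held the highest Bdh2 value of set 2.

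**Figure D3:**
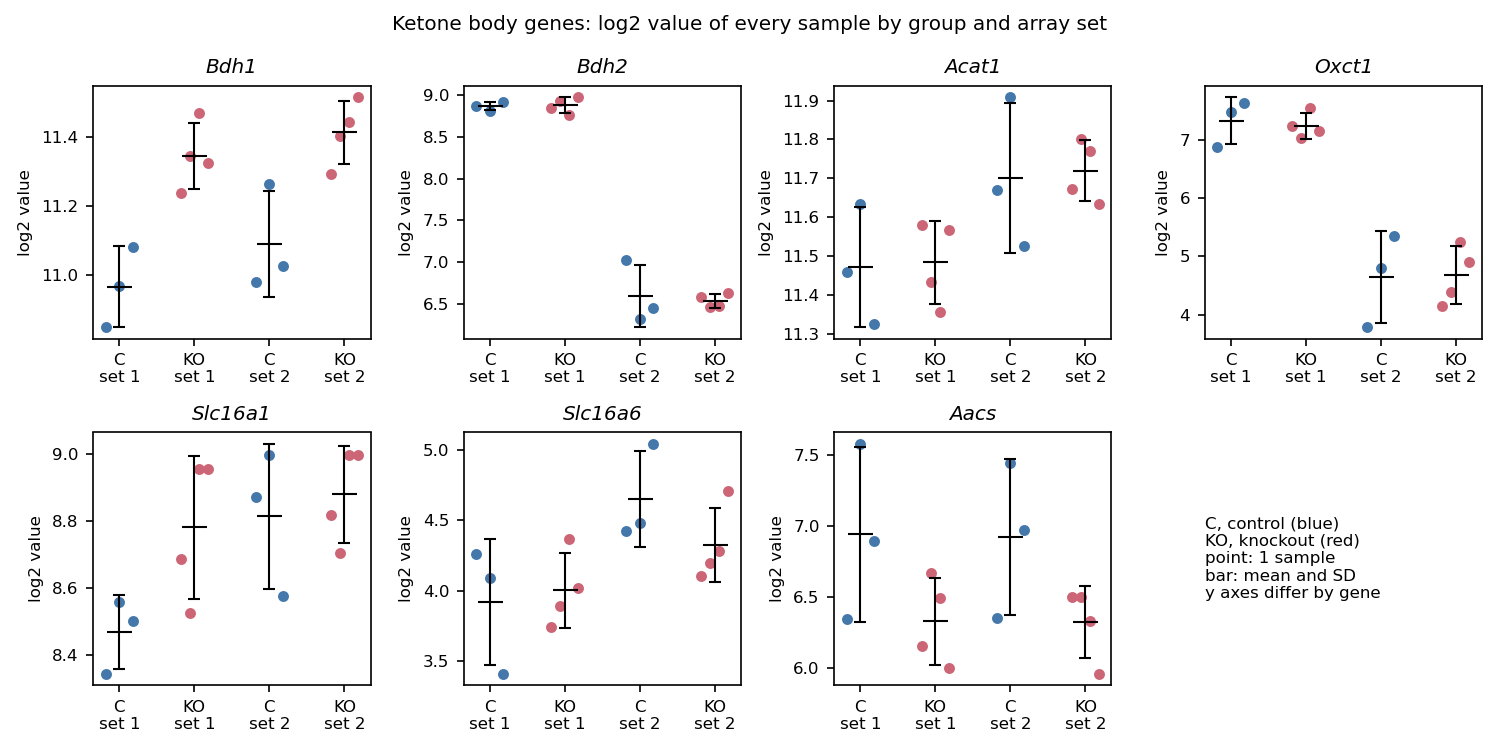
Log2 value of every sample for the 7 genes, by group (blue, control; red, knockout) and array set, with the mean and SD; the y axes differ by gene. Bdh1 is higher in the knockouts of both sets, Aacs is lower on average with 1 low control in each set, and Bdh2 and Oxct1 differ between the sets by over 2 on the log2 scale.

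Oxct1 encodes the mitochondrial transferase that activates acetoacetate for oxidation. In set 1 its values were 6.87, 7.48 and 7.62 in the controls and 7.23, 7.02, 7.54 and 7.14 in the knockouts. In set 2 they were 3.79, 4.80 and 5.34 in the controls and 4.15, 4.40, 5.25 and 4.90 in the knockouts, all below the median of every array. The set difference was -2.61 ± 0.22 (SE), or 6.11-fold, larger in size than that of 99.6% of all genes. Control 1 and control 4 held the lowest Oxct1 value of their set. The knockout difference was -0.03 ± 0.22 (SE; 95% interval -0.49 to 0.43; limma adjusted p = 0.987), and no knockout sample lay below all controls of its set. The residual SD of Oxct1, 0.47, was above that of 99.0% of genes, so only large changes of this gene could be seen. Without control 1 and control 4 the difference was -0.36 ± 0.18 (SE; adjusted p = 0.497), and its sign turned positive when any of 6 single arrays was left out, up to 0.12 without control 6. In tissue RNA, fewer cells of a type and less RNA per cell cannot be told apart.

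Aacs encodes the cytosolic acetoacetyl-CoA synthetase, which feeds acetoacetate into lipid and sterol synthesis. In set 1 it was at 6.35, 7.58 and 6.89 in control 1 to 3 and at 6.15, 6.67, 6.49 and 6.00 in knockout 1 to 4. In set 2 it was at 6.35, 7.45 and 6.97 in control 4 to 6 and at 6.50, 6.50, 6.33 and 5.96 in knockout 5 to 8. Apart from control 1 and control 4, every control lay above every knockout of its set, while those 2 controls lay among the knockouts. As a result 4 of 8 knockout samples were below all controls of their set. Control 1 and control 4 were set apart here by their own Aacs values. The share of all genes with such a pattern or count was not computed. The difference was -0.61 ± 0.19 (SE; n = 6 and 8; limma adjusted p = 0.208), 0.657 of the control level (95% interval 0.496 to 0.869), and it was -0.61 in set 1 and -0.60 in set 2. It did not pass the threshold over all genes, and its unadjusted exact two-sided permutation p within the sets was 0.0163. Over the fits that each left out 1 array it ran from -0.74 without control 1 to -0.47 without control 2 (limma adjusted p from 0.115 to 0.389). Without both control 1 and control 4 it was -0.90 ± 0.16 (SE; limma adjusted p = 0.0503), and leaving out 2 low controls enlarges a fall by itself.

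**Figure D4:**
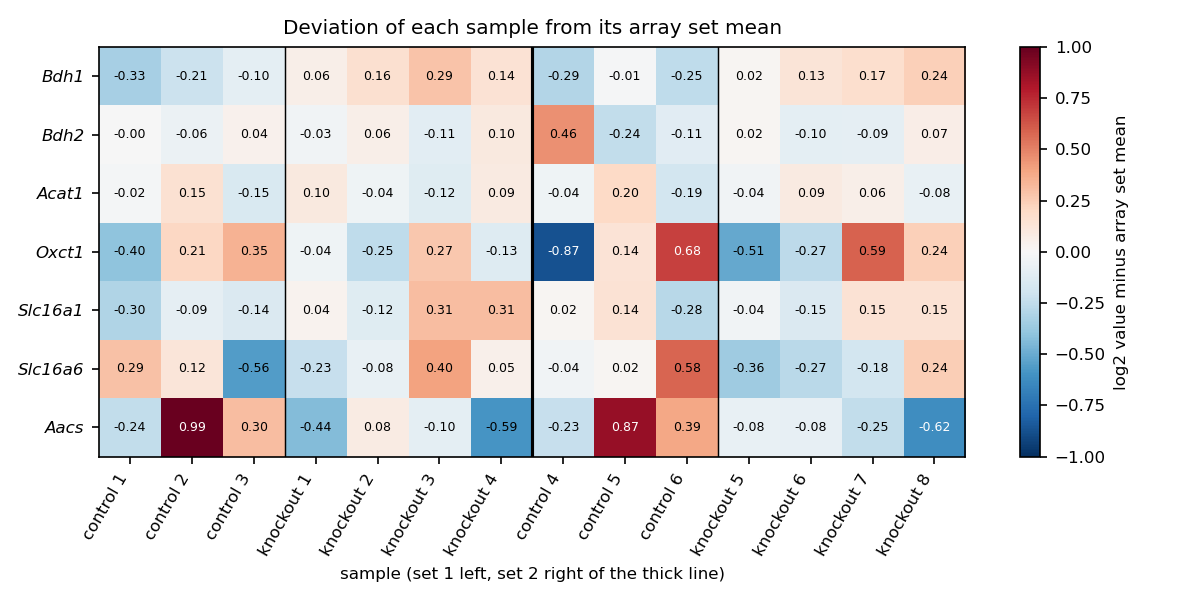
Log2 value of each sample minus the mean of its array set, for the 7 genes (colour and printed value); thin lines part control from knockout and the thick line parts the sets. In the Bdh1 row all controls are negative and all knockouts positive, and in the Aacs row control 1 and control 4 (-0.24 and -0.23) differ in sign from the other controls (0.30 to 0.99).

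Slc16a1 encodes monocarboxylate transporter MCT1, which carries lactate, pyruvate and ketone bodies with a proton. In set 1 the controls were at 8.35, 8.56 and 8.50 and the knockouts at 8.69, 8.53, 8.96 and 8.96. In set 2 the controls were at 8.87, 8.997 and 8.58 and the knockouts at 8.82, 8.71, 8.999 and 8.999. Of the knockout samples 3 of set 1 were above all controls of that set, and 2 of set 2 barely exceeded control 5. How many of all genes had such counts was not computed. The difference was 0.19 ± 0.10 (SE; 95% interval -0.02 to 0.40; limma adjusted p = 0.544), with 0.31 in set 1 and 0.07 in set 2. The interaction of knockout with set was -0.25 (95% interval -0.66 to 0.16; limma adjusted p = 0.998), so the sets were not shown to differ.

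Slc16a6 encodes another member of the same transporter family that has been linked to export of ketone bodies from the liver. Its row was dim, at 3.41 to 5.05 over all arrays and below every array median (5.73 to 5.87). With no background level to compare it to, this row may not measure the gene. The controls were at 4.26, 4.09 and 3.41 in set 1 and 4.42, 4.48 and 5.05 in set 2. The knockouts were at 3.74, 3.89, 4.37 and 4.02 in set 1 and 4.11, 4.20, 4.28 and 4.71 in set 2. The difference was -0.12 ± 0.16 (SE; 95% interval -0.46 to 0.21; limma adjusted p = 0.870), with 0.08 in set 1 and -0.33 in set 2. It ran from -0.26 without control 3 to -0.0099 without control 6.

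The other genes of the pathway were given by 4 lists, of which 43 of 49 genes were measured. Of these 2 were called higher, against 0.431% of all genes, and 0 lower, against 0.272%. At an unadjusted p under 0.05, the count given for each list below, limma had 10.4% of all genes. Among 7 other genes of ketone body synthesis 0 passed in limma (3 at an unadjusted p under 0.05), and the median difference was 0.03. Hadhb and Hadha, the subunits of the mitochondrial trifunctional protein of fatty acid oxidation, were at 0.25 ± 0.07 and 0.20 ± 0.07 (SE; adjusted p = 0.165 and 0.225). For each gene all 8 knockout samples were above every control of their set, as for 0.774% of all genes. Hmgcs1, the cytosolic synthase of the sterol pathway, was at -0.50 ± 0.19 (SE; adjusted p = 0.346). As for Aacs, control 1 (8.83) and control 4 (9.69) were the lowest controls of their sets for Hmgcs1, the others lying at 10.08 and 10.12 in set 1 and at 10.16 and 10.45 in set 2. Without them Hmgcs1 was at -0.81 (limma adjusted p = 0.0400), and leaving out 2 low controls enlarges a fall by itself. With all arrays kept, 2 of 8 knockout samples were below all controls of their set for Hmgcs1, a count whose share over all genes was not computed. Among 5 other genes of ketone body use and short-chain acid activation limma called 0 (unadjusted, 1 was under 0.05), and the median was -0.02. The acetyl-CoA synthetase genes Acss2 and Acss1 were at -0.19 ± 0.07 (adjusted p = 0.333) and -0.05 ± 0.14 (adjusted p = 0.952), and Oxct2a, a paralog of Oxct1, was at 0.07 ± 0.10 (adjusted p = 0.880). The rows of Acss1 and Oxct2a were dim, with means of 4.30 and 4.92 over all arrays, and may not measure these genes.

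Of 16 other monocarboxylate and pyruvate transporters and their partner proteins limma called 0 (unadjusted, 3 were under 0.05), with 7 positive and 9 negative differences and a median of -0.02. The smallest p-values belonged to members of the Slc16 family with negative differences. Slc16a11 was at -0.40 ± 0.09 (SE; limma adjusted p = 0.0592) and Slc16a10, an aromatic amino acid transporter, at -0.31 ± 0.07 (SE; adjusted p = 0.0678). In each case the 8 knockout samples were below every control of their set, as for 0.538% of all genes. With only genes of at least 5 in the higher group mean tested, both passed (adjusted p = 0.0321 and 0.0316). Slc16a14 was at -0.30 ± 0.08 (SE; adjusted p = 0.153), on a dim row.

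Among 15 regulators and upstream oxidation genes 2 rose and 0 fell, 6 had an unadjusted p under 0.05, and the median was 0.04. Cpt1a, the carnitine transferase at the entry of fatty acids into mitochondria, rose by 0.36 ± 0.07 (SE; limma adjusted p = 0.0253). It was above every control of its set in 8 of 8 knockout samples, as for 0.774% of all genes. Fgf21, which encodes a hormone that the liver releases in fasting, rose by 1.17 ± 0.23 (SE; adjusted p = 0.0335), with 7 of 8 samples above, at 1.62 in set 1 and 0.72 in set 2. Leaving out 1 array ended the Cpt1a call in 4 of 14 fits (adjusted p up to 0.0709) and the Fgf21 call in 11 of 14 (up to 0.0875), both highest without control 2. Both calls were also lost without the set term, with the replicate number as a block (adjusted p = 0.299 and 0.384), without control 1 and control 4 (0.0994 and 0.161) and without knockout 7 and 8 (0.0963 and 0.101). Acadm, the medium-chain acyl-CoA dehydrogenase gene, was at 0.23 ± 0.07 (SE; adjusted p = 0.155) with 7 of 8 samples above all controls of their set. The share of all genes with 7 of 8 samples above was not computed, for Acadm or for Fgf21. With eBayes run with trend and robust, Hadhb, Hadha, Acadm, Slc16a11 and Slc16a10 passed too (adjusted p = 0.0146, 0.0236, 0.0160, 0.0433 and 0.0140), in a fit that called 325 genes.

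**Figure D5:**
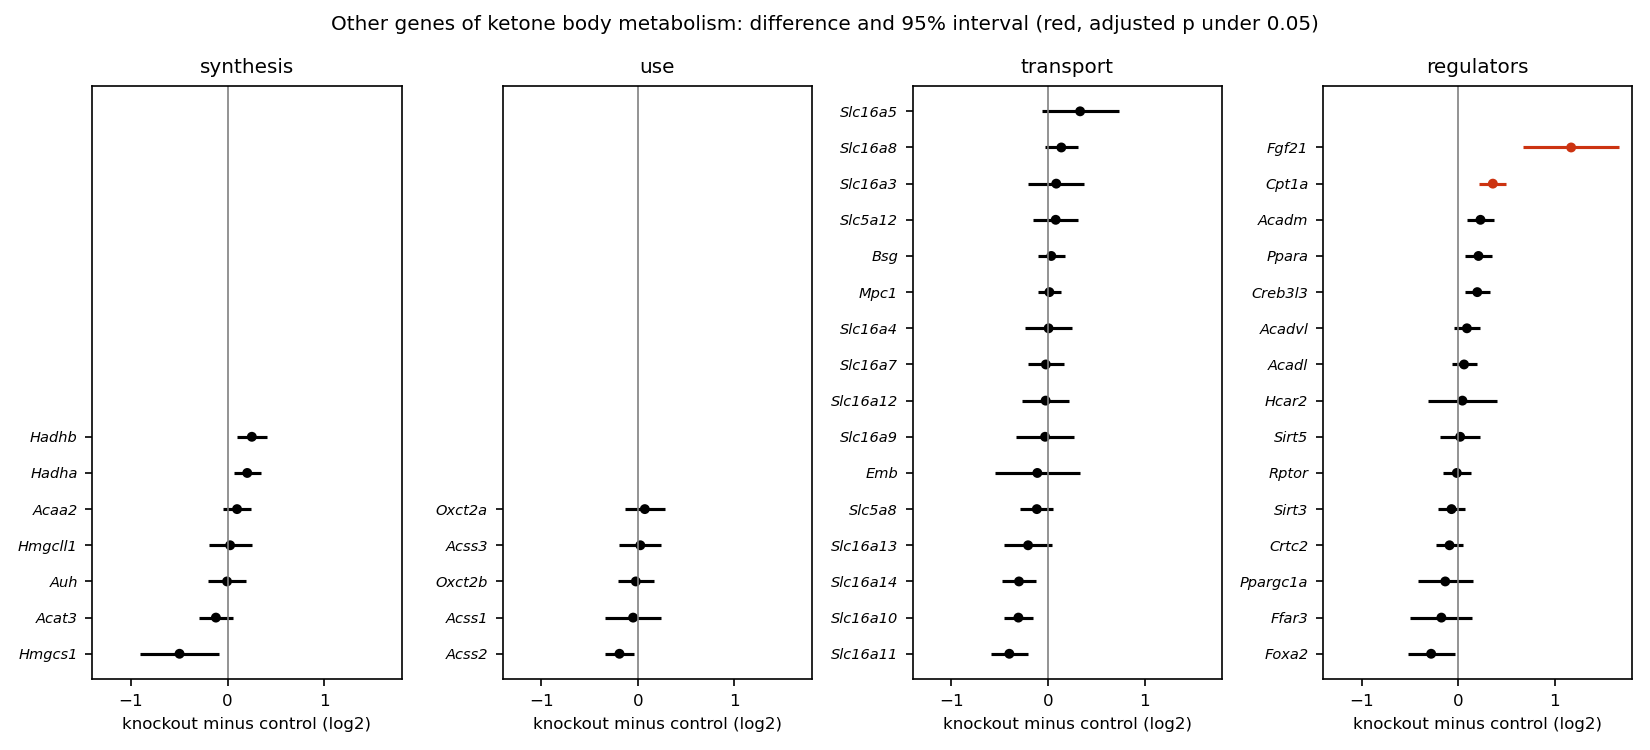
Knockout minus control (log2) with 95% intervals for the 43 other measured genes, in the 4 lists; red marks an adjusted p under 0.05. Fgf21 (1.17) and Cpt1a (0.36) are the marked genes, and Slc16a11 and Slc16a10 lie lowest in the transport list at -0.40 and -0.31.

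Likeness between genes was measured by Pearson's r over the 14 samples of the values minus their array set mean, among 12239 other genes with a mean of at least 5 (12240 for Slc16a6, whose own mean is lower), and is given without a test; samples share array and group. The genes most like Bdh1 were Elovl2 (r = 0.958), Sh3bgrl2 (0.948) and Fam13b (0.944), and Elovl2 encodes an elongase of polyunsaturated fatty acids. With the group means also removed, r for these genes was 0.805, 0.772 and 0.744. Those most like Aacs were Tnfaip3 (r = 0.933), Scap (0.903), whose product escorts the sterol-sensing factor SREBP, and Irf1 (0.892). For Slc16a1 they were Gm4952 (0.954), Caln1 (0.875) and Atp9a (0.847). Oxct1 ran most like Rpl10a (0.897), Sema6d (0.893) and Mustn1 (0.877), and Bdh2 most like Gpsm2 (0.905), Dnajc19 (0.903) and H2-Q10 (0.885). Acat1 and the dim Slc16a6 had lower highest values, 0.837 for Dus4l, 0.813 for Sowahc and 0.801 for Wscd1 with Acat1, and 0.814 for Rdh5, 0.775 for Hexim2 and 0.775 for Myo1g with Slc16a6. Among the 7 genes themselves the highest r of the 21 pairs was that of Bdh1 with Slc16a1 (0.677, or 0.571 with group means removed). The lowest was that of Bdh2 with Oxct1 (-0.643). Control 4 was the extreme sample for both, at 0.455 for Bdh2 and -0.874 for Oxct1 after subtraction of the set mean. This r therefore leans on 1 array. No r without control 4 was computed, here or for the genes most like Bdh2.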

How the data were processed

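Liver RNA of 14 samples (6 control, 8 knockout) was labelled with the WT PLUS kit and measured on Affymetrix arrays. The deposited values are log2 intensities: RMA and Partek are named, without versions, in the submitters' processing notes, and the log2 scale was read from the values (2.13 to 13.8). No further normalization was applied. Of 22206 rows, 19572 had 1 symbol, and 2634 were not named. Where a gene had several rows (55 genes) the brightest on average was kept, giving 19505 genes. Arrays give no read depth, so their number limits the precision.

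The 2 array sets were found by average-linkage clustering of the correlations over all rows. The groups were compared with limma 3.58.1 in R 4.3.3 (lmFit, then eBayes), in a model of group and array set that leaves 11 residual degrees of freedom. P-values were Benjamini-Hochberg adjusted over all genes, with a threshold of 0.05. Differences of single genes were also permuted exactly within the sets. The fit was tested on simulated data: of 100 genes shifted by 0.5 on the log2 scale 67 were called, of 100 shifted by 1 all 100, and 10 unshifted genes were called too. The simulated noise was normal and independent between genes. Deviations that many genes of an array share were therefore not represented, and these counts may not hold for the real arrays.

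The 7 members are all described. From each pathway list up to 5 called genes, or the 3 of smallest p where fewer than 3 passed, are named, as are the 3 genes most like each member. The members, lists, set term and tests were chosen with earlier results of these data known. The closing section gives the alternatives. In the sample descriptions, knockout 7 and 8 carry the same numbers as knockout 5 and 6. As their arrays differ in values, all 4 were counted as samples.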

Additional observations from a re-analysis of the deposited data

How the results depend on the processing

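The reported fit called 137 genes. The count was 0 without the array set term (655 at an unadjusted p under 0.05, limma, against 2021 with the term), 2 in set 1 alone and 2 in set 2 alone. It was 325 by eBayes with trend and robust, 223 with a filter on dim genes, 67 with knockout 5 and 7 and knockout 6 and 8 averaged, 12 without knockout 7 and 8, and 26 without control 1 and control 4. Leaving out each array gave 44 (without control 4) to 132 genes (without control 3). With array weights, quantile normalization, median centring or the mean of all rows it stayed within 1.5 times.

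The replicate numbers of the titles were not taken as pairs. Same-numbered samples deviated together with r of 0.0229 to 0.0871, and number 4 lies in both sets. No r of differently numbered samples was set beside these, so the values do not exclude pairing. With the replicate block beside the set term, 2 genes were called, with 4 residual degrees of freedom. Under the block Bdh1 was at 0.31 (limma adjusted p = 0.400), Oxct1 at -0.35 (0.618), Bdh2 at 0.043, Acat1 at -0.0011 and Oxct2a at -0.0095.

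Bdh1 kept its direction and lost its call without the set term (0.35, adjusted p = 0.519), in set 1 alone (0.38, 0.392), in set 2 alone (0.32, 0.709), with the repeated numbers averaged (0.36, 0.0740), without knockout 7 and 8 (0.33, 0.132) and without control 1 and control 4 (0.29, 0.169), and ran from 0.32 to 0.39 without 1 array. It kept the call by trend and robust, array weights, quantile normalization, median centring, the dim filter and the mean of rows (limma adjusted p from 0.000545 to 0.0455). Aacs (-0.61) passed in none of the fits after adjustment. Its unadjusted p was under 0.05 both by the exact permutation (p = 0.0163) and by limma in the reported fit (p = 0.00575).

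Signs turned for differences near 0. Bdh2 was at 0.0099 in set 1 alone and 0.083 without control 1 and control 4, and ran from -0.080 to 0.073 without 1 array. Acat1 was at -0.0165 after quantile normalization and ran from -0.024 to 0.060. Oxct1 was at 0.032 in set 2 alone and ran from -0.22 to 0.12. Slc16a6 was at 0.084 and Oxct2a at -0.020 in set 1 alone. Acss1 was at 0.23 in set 2 alone and ran from -0.13 (without control 5) to 0.10 (without control 3). The cause of these changes was not tested.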
